A study of Mus musculus with 40 samples.

Results

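The 6 genes that encode brakes on the kinase complex mTORC1 studied here are Ddit4 and Ddit4l (REDD1 and REDD2), the sestrins Sesn1, Sesn2 and Sesn3, and Deptor. They were chosen by name from the gene table, in which all 6 were found among 23621 genes. All 6 passed the filter on low counts in both muscles. Messenger RNA was sequenced from muscle of C57BL/6 mice, without any genetic change named in the labels, in 40 libraries. The 24 quadriceps libraries form 8 groups of 3. Sedentary mice were taken at zeitgeber time (ZT, hours after lights on) 0, 4, 12 and 16. The treadmill groups ran until exhausted, in a ZT0 session or a ZT12 session, with muscle taken as the run ended (+0h, labelled ZT0.5 and ZT12.5) or 3 h afterwards (+3h, labelled ZT3.5 and ZT15.5). The 16 gastrocnemius libraries form 4 groups of 4, from mice whose wheel was open at night only or in the day only, taken at ZT4 or ZT16. Night running is the usual habit of mice, and the labels title the night group as the control. There is no gastrocnemius group without a wheel. The labels used here name neither age nor sex, and a library is read here as 1 mouse.

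mTORC1 is a kinase complex at the surface of the lysosome that drives protein synthesis and growth and holds back autophagy when amino acids, growth factors and energy are plentiful. REDD1 and its relative REDD2 act upstream, through the TSC complex, which keeps the small GTPase Rheb inactive. Sestrins act on the amino acid branch: they bind GATOR2, which otherwise blocks GATOR1, the inhibitor of the Rag GTPases, and Sestrin2 is a leucine sensor. DEPTOR binds mTOR directly and lowers its activity. In skeletal muscle REDD1 is known as a gene induced by glucocorticoids, low oxygen, fasting and exercise, and REDD2 is a form most abundant in muscle. Protein amounts and phosphorylation are not analysed here, so the values below are of mRNA alone.

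Upstream sequence is shown for Ddit4 and Sesn1, the first with the largest change after a run and the second called in treadmill and wheel comparisons alike. Each line holds the 250 bases before a RefSeq transcription start, from the RefSeq promoter table on GRCm38.p6, written 5′ to 3′ on the gene's strand. Capitals mark ACGTG, the core of hypoxia response elements, and TGACG, the core of cAMP response elements, on either strand. Ddit4 lies on the minus strand of chromosome 10 and its stretch is chr10:59951771-59952020. Sesn1 has 2 RefSeq starts on the plus strand of the same chromosome, with stretches chr10:41810324-41810573 and chr10:41887189-41887438.
Ddit4: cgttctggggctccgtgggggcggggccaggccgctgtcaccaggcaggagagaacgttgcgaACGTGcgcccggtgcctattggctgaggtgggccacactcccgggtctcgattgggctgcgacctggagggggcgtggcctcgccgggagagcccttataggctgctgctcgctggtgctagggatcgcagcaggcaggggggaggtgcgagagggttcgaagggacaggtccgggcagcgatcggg
Sesn1 upstream start: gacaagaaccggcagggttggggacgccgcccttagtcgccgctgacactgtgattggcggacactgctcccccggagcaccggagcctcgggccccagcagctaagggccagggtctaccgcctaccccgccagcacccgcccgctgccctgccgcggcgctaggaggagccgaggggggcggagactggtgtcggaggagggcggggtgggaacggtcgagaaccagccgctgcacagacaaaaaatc
Sesn1 downstream start: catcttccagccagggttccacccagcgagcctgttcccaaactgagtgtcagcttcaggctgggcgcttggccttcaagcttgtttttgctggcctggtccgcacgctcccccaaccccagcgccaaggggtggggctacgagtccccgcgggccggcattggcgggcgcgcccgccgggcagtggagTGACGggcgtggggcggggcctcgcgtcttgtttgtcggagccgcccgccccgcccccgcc
The ACGTG of Ddit4 begins 187 bases before its start, and the TGACG of Sesn1 begins 61 bases before the downstream start. Each motif was searched on both strands of the whole 300-base window of the table, which runs 50 bases past the start. ACGTG was held by 19.6% of all 32851 RefSeq windows and TGACG by 20.8%, so neither letter string is rare. TGACG is part of the full cAMP response element TGACGTCA, and ACGTG is part of the E-box CACGTG.

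The table holds 6 windows for 5 of the genes: 1 each for Ddit4, Ddit4l, Sesn2 and Sesn3, and 2 for Sesn1. The forkhead motif GTAAACA, held by 3.65% of all windows, was found in 1 of them, on the opposite strand 23 bases after the upstream start of Sesn1. The CCAAT box, letters CCAAT, was found in every window but that of Ddit4l, against 37.4% of all windows. The TATA box letters TATAAA stood only in the Ddit4l window, 36 bases after the start, against 13.6% of all. None of the 6 windows held the E-box CACGTG (7.15% of all windows), TGACGTCA (1.79%), the ATF4 and C/EBP composite TGATGNAA (3.97%) or the palindromic glucocorticoid response element (0.00913%). Such a match is a description of letters, and factor binding was not measured in these data.

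A quadriceps library held 27352875 to 79491649 estimated counts and a gastrocnemius library 45010256 to 70033483. Tested genes numbered 15097 and 14523. Levels are CPM, counts scaled to library size, with means ± SD, and changes are log2 fold changes with their standard error (SE). A gene counted as raised or lowered where the adjusted p of edgeR's quasi-likelihood test fell under 0.05. Overlap of libraries is given as a description, and its share over all genes was not counted. Groups of 3 can lie apart without a call. Sesn2 did so between sedentary ZT16 and ZT4 (log2 fold change -0.16, adjusted p = 0.71). Deptor did so from +0h to +3h of the ZT0 session (-0.18, adjusted p = 0.40). The summed level of 8 fast fibre markers (among them Acta1, Ckm and Myh4) ran from 132100 to 198200 CPM over all libraries, and all 8 were in the table. In quadriceps the summed slow fibre markers (Myh7, Tnni1 and 4 others) ran from 21.4 to 1868 CPM, and in gastrocnemius from 372 to 1431 CPM. The 7 adipocyte markers summed to 228 to 2346 CPM (quadriceps) and 152 to 204 CPM (gastrocnemius). In whole muscle, a change in the share of a cell type and a change in RNA per cell cannot be told apart.

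The 6 genes differed widely in level. Per kilobase of the RefSeq-matched transcript, the group means of Ddit4l in quadriceps ran from 50.4 to 142 CPM. Those of Deptor ran from 12.9 to 17.6 CPM by its longest form and from 33.5 to 45.6 CPM by its shortest. Group means of Sesn1 ran from 5.33 to 11.6 CPM per kilobase by its longest form and from 7.8 to 17.0 by its shortest. Sesn2 (0.665 to 1.40 CPM per kilobase) and Sesn3 (0.296 to 0.458 CPM per kilobase) were the scarcest. Ddit4 ranged from 2.32 to 139 CPM per kilobase. Ddit4 was thus the most variable gene of the group: its highest quadriceps group mean was 59.8 times its lowest, against 2.83 times for Ddit4l, 2.18 for Sesn1, 2.10 for Sesn2, 1.55 for Sesn3 and 1.36 for Deptor. Counts behind single values reached as low as 67 for Sesn3 and 86 for Sesn2 in a quadriceps library, so counting error is largest for those genes.

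**Figure D1:**
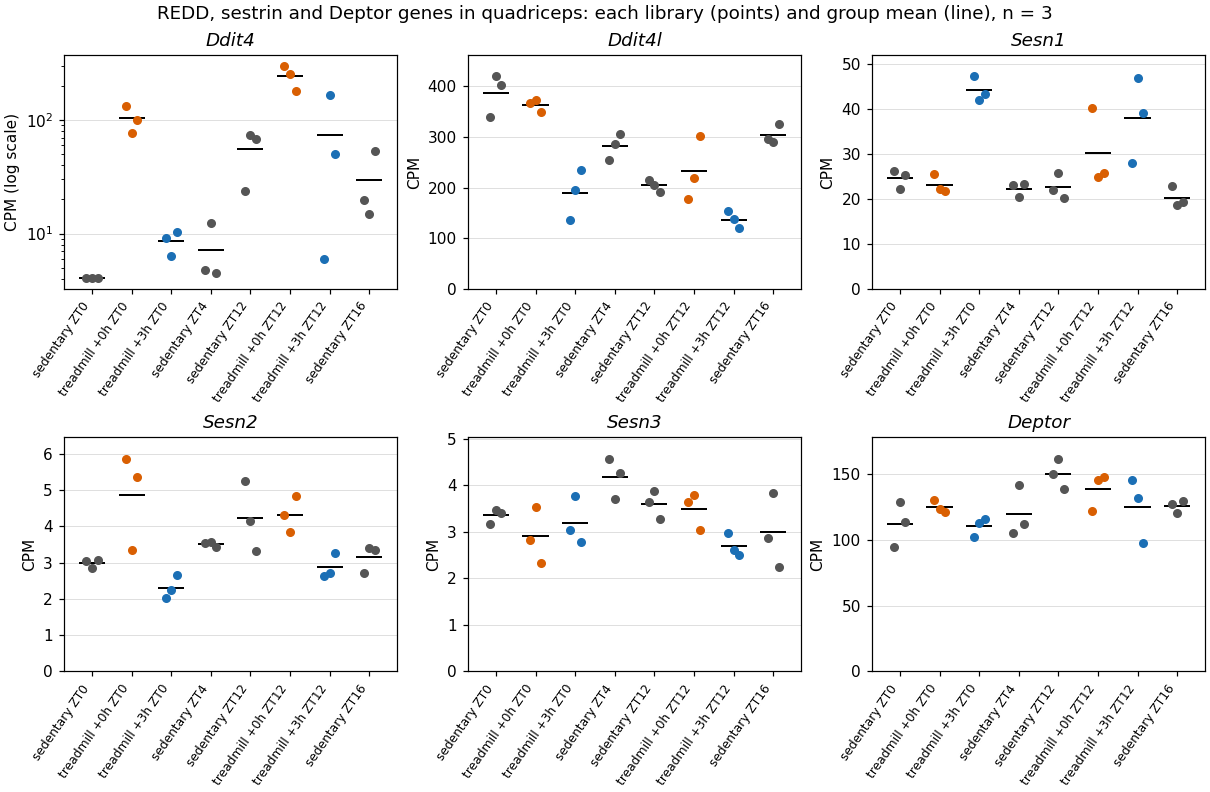
Level of each gene in CPM (vertical axis, from 0 except for Ddit4, which has a log axis) in the 24 quadriceps libraries by group; points are libraries and lines group means of 3. Ddit4 stands between 4.04 and 4.10 CPM in sedentary mice at ZT0 and between 178 and 300.5 CPM at the end of the ZT12 run, and Sesn1 is highest in the +3h groups.

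The first question was how the brakes vary over the day in mice that did not run. In sedentary quadriceps, Ddit4 was lowest at lights on and highest at lights off, while Ddit4l did the opposite. Over the 4 sedentary groups, 2 of the 6 genes (Ddit4 and Ddit4l) passed the test for any difference, against 17.1% of all genes. Between ZT12 and ZT0, 2 genes rose (Ddit4 and Deptor) and 1 fell (Ddit4l), where 7.58% of all genes were raised and 8.56% lowered (16.1% in all).

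Ddit4 read 4.04, 4.10 and 4.07 CPM in the sedentary mice at ZT0. At ZT4 it read 4.76, 12.4 and 4.54 CPM. At ZT12 it read 23.6, 74.1 and 68.1 CPM, and at ZT16 it read 19.9, 14.8 and 53.3 CPM. The ZT12 and ZT16 libraries all lie above those of ZT0 and ZT4, and ZT12 and ZT16 overlap each other. From ZT0 to ZT12 the level rose 13.6-fold (log2 fold change 3.76, SE 0.863, adjusted p = 0.0076). The later pair of times, ZT16 against ZT4, gave a log2 fold change of 2.04 (SE 0.801) that did not pass (adjusted p = 0.16). The test over all 4 times passed at an adjusted p of 0.012, and it did so without any 1 of the 12 libraries (highest adjusted p 0.04).

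Ddit4l, the muscle-enriched relative, read 340.2, 420.1 and 403 CPM at ZT0 and 215, 206 and 193 CPM at ZT12. These libraries do not overlap, and the fall was 1.89-fold (log2 fold change -0.92, SE 0.171, adjusted p = 0.0014). Its levels at ZT4 (256, 286 and 306 CPM) and ZT16 (295, 291 and 325 CPM) lie between those of ZT0 and ZT12, and overlap each other. The test over the 4 times gave an adjusted p of 0.0067. Deptor read 94.5, 129 and 113 CPM at ZT0 and 150.3, 162 and 139 CPM at ZT12, again with no overlap (log2 fold change 0.42, SE 0.131, adjusted p = 0.034). That call held without 2 of the 6 libraries left out singly, and the adjusted p reached 0.16 without sedentary ZT0 replicate 1. It was also lost in a fit of only the groups compared (adjusted p = 0.057). The test over all 4 times gave Deptor an adjusted p of 0.097, and 0.043 without sedentary ZT4 replicate 2.

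In edgeR's fit of all libraries the sestrins did not pass between sedentary groups. Sesn1 lay between 18.6 and 26.2 CPM in all 12 sedentary libraries, with overlap between every pair of neighbouring groups (adjusted p = 0.64 over the 4 times). Sesn2 read 3.04, 2.85 and 3.08 CPM at ZT0 and 5.25, 4.14 and 3.31 CPM at ZT12, without overlap, at a log2 fold change of 0.50 and an adjusted p of 0.064. It passed with DESeq2 (adjusted p = 0.044) and without sedentary ZT12 replicate 3 (0.65, adjusted p = 0.024). Sesn3 read 4.58, 3.70 and 4.27 CPM at ZT4 and 2.88, 3.83 and 2.25 CPM at ZT16, which overlap, at an adjusted p of 0.092. Without sedentary ZT16 replicate 2, the highest of its group, Sesn3 passed (log2 fold change -0.71, adjusted p = 0.02), and so did the test over the 4 times (adjusted p = 0.04). In the ZT16 against ZT4 comparison edgeR called 0 of the 6 genes (3.49% of all genes were raised and 3.67% lowered, 7.16% in all). The unadjusted p was under 0.05 for 2 of them and for 2917 of all 15097 genes. DESeq2 called 0 of them and 1374 of all genes. Endothelial markers moved with the time of day: 4 of 5 fell from ZT0 to ZT12, and their summed level went from 226 to 271 CPM down to 145 to 189 CPM. The adipocyte sum ranged from 228 to 651 CPM at ZT0 and from 453 to 2346 CPM at ZT12, with 1 of 7 markers raised. The slow fibre sum ran from 139 to 1476 CPM at ZT0 and from 40.2 to 306 CPM at ZT12. Of its 6 markers 0 were called, with a median log2 fold change of -2.39, and 1 of 8 fast fibre markers was raised. The part of these cell and fibre types in the Ddit4, Ddit4l and Deptor differences was not tested.

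The second question was what a run to exhaustion did at once. Ddit4 rose sharply at the end of the run at lights on, together with a smaller rise of Sesn2. In that comparison 2 of the 6 genes were raised and 0 lowered, where 4.29% of all genes were raised and 2.53% lowered (6.82% in all). At the end of the ZT12 run edgeR called 0 of the 6 genes, where 3.19% of all genes were raised and 1.41% lowered (4.6% in all), although Ddit4 reached its highest levels of the study there. DESeq2 called 0 of the 6 there, against 917 of all 15097 genes. Of the 6, Ddit4 and Sesn1 (2 genes) had an unadjusted p under 0.05, as did 2545 of all genes.

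Ddit4 read 133, 76.5 and 99.2 CPM at the end of the ZT0 run, against 4.04, 4.10 and 4.07 CPM in sedentary mice at ZT0. Every run library lies far above every control, a 25.3-fold rise (log2 fold change 4.66, SE 0.893, adjusted p = 0.0042). The call held without any 1 of the 6 libraries, with adjusted p from 0.0069 to 0.032. Against the sedentary ZT4 mice instead, Ddit4 was called as well (log2 fold change 3.85, adjusted p = 0.01). At the end of the ZT12 run the gene read 300.5, 251 and 178 CPM, against 23.6, 74.1 and 68.1 CPM in sedentary mice at ZT12. Again no library overlaps, and the level was 4.40-fold higher (log2 fold change 2.14, SE 0.778, 95% interval 0.49 to 3.78), but the adjusted p was 0.16. Against the sedentary ZT16 mice that value was 3.05 and passed (adjusted p = 0.029). The 2 responses differed by -2.52 on the log2 scale (SE 1.11, ZT12 minus ZT0), which did not pass (adjusted p = 0.36). The ZT0 control of the first response is also the baseline of the ZT12 against ZT0 comparison above, so these values share libraries.

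Sesn2, the leucine-binding sestrin, read 5.87, 3.35 and 5.36 CPM at the end of the ZT0 run, against 3.04, 2.85 and 3.08 CPM. The groups do not overlap, and the rise was 1.62-fold (log2 fold change 0.70, SE 0.181, adjusted p = 0.023). It passed without 1 of the 6 libraries only: without treadmill +0h ZT0 replicate 2, the lowest of the run, the value was 0.91 (adjusted p = 0.0026), and without any other library the adjusted p was 0.052 to 0.17. Against the sedentary ZT4 mice instead, Sesn2 did not pass (0.46, adjusted p = 0.12), nor did it in a fit of only the groups compared (0.69, adjusted p = 0.12). At the end of the ZT12 run Sesn2 read 4.30, 3.84 and 4.84 CPM, within the range of its control, with a log2 fold change of 0.03 (SE 0.178, adjusted p = 0.96). The difference between the responses was -0.67 (SE 0.254, adjusted p = 0.29). Between the sessions edgeR called 0 of the 6 genes, and 0% of all genes, for a difference of the +0h responses. DESeq2 called 0 of the 6 as well and 16 of all genes, and the unadjusted p was under 0.05 for 2 of the 6 (Ddit4 and Sesn2) and for 1912 of all genes. Without treadmill +0h ZT0 replicate 2, edgeR called 322 of all genes, Sesn2 among them (-0.88, adjusted p = 0.046).

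Sesn1 read 40.2, 24.9 and 25.8 CPM at the end of the ZT12 run, against 22.0, 25.8 and 20.2 CPM. Replicate 1 of the run is high and the other two overlap the controls (log2 fold change 0.42, SE 0.172, adjusted p = 0.21). Without treadmill +0h ZT12 replicate 1, the high one, the value was 0.16. Against the sedentary ZT16 mice instead, Sesn1 passed (0.58, adjusted p = 0.045). At the end of the ZT0 run Sesn1 had a log2 fold change of -0.09 (95% interval -0.45 to 0.28). Ddit4l, Sesn3 and Deptor overlapped their controls at the end of both runs. Their log2 fold changes ran from -0.20 (Sesn3, ZT0) to 0.18 (Ddit4l, ZT12). For Ddit4l the 95% interval of the log2 fold change was -0.45 to 0.26 after the ZT0 run and -0.17 to 0.54 after the ZT12 run. Among markers, 2 of 5 endothelial genes were lowered after the ZT0 run and 0 after the ZT12 run. The adipocyte sum ran from 295 to 1771 CPM at the end of the ZT0 run, against 228 to 651 CPM in its control, with 0 of 7 markers called. The slow fibre sum ran from 106 to 223 CPM at the end of the ZT0 run, against 139 to 1476 CPM in its control. Of its 6 markers 0 were called, with a median log2 fold change of -2.19, and 1 of 8 fast fibre markers was raised. The part of these cells and fibre types in the rise of Ddit4 and Sesn2 was not tested.

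**Figure D2:**
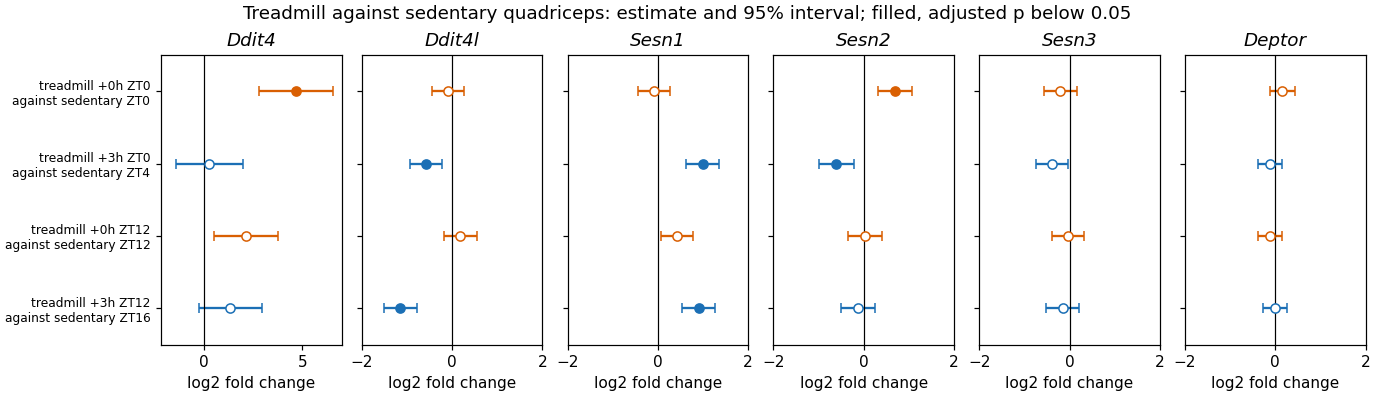
Log2 fold change (horizontal axis, with 95% intervals) of each gene in the 4 treadmill comparisons; filled points passed an adjusted p of 0.05, and the axis of Ddit4 is wider than the others. Ddit4 has its largest value, 4.66, at the end of the ZT0 run, while Sesn1 and Ddit4l pass only in the +3h comparisons, at both sessions.

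The third question was what remained 3 h later. Sesn1 rose and Ddit4l fell after both sessions, and Sesn2 fell after the ZT0 session. After the ZT0 session 1 of the 6 genes was raised and 2 were lowered, where 6.96% of all genes were raised and 6.63% lowered (13.6% in all). After the ZT12 session 1 was raised and 1 lowered, where 8.7% of all genes were raised and 8.53% lowered (17.2% in all). Ddit4 did not pass in either comparison.

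Sesn1, a p53 and FoxO target, read 47.2, 42.0 and 43.2 CPM in the +3h mice of the ZT0 session, against 23.0, 20.5 and 23.2 CPM in sedentary mice at ZT4. The groups lie far apart, a 1.98-fold rise (log2 fold change 0.99, SE 0.173, adjusted p = 0.00086). After the ZT12 session it read 28.0, 46.9 and 39.0 CPM, against 23.0, 18.6 and 19.4 CPM at ZT16. The lowest of these run libraries still exceeds every control, and the rise was 1.87-fold (log2 fold change 0.90, SE 0.173, adjusted p = 0.0012). Both calls held without any 1 library. The 2 responses differed by -0.08 (95% interval -0.59 to 0.42).

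Ddit4l read 137, 195 and 235 CPM in the +3h mice of the ZT0 session, against 256, 286 and 306 CPM. All run libraries lie below all controls, a 1.5-fold fall (log2 fold change -0.58, SE 0.171, adjusted p = 0.028). This call was lost without 4 of the 6 libraries; without treadmill +3h ZT0 replicate 1, the lowest, the value was -0.40 (adjusted p = 0.12). It was also lost in a fit of only the groups compared (adjusted p = 0.14). After the ZT12 session it read 154, 137 and 120.1 CPM, against 295, 291 and 325 CPM. The gap is wide, and the fall was 2.22-fold (log2 fold change -1.15, SE 0.172, adjusted p = 0.00013), a call that held without any 1 library. The difference between the sessions was -0.57 (SE 0.241, adjusted p = 0.31). Both falls also passed against the other sedentary control. Their values were then -1.04 (ZT0 session, against sedentary ZT0 mice) and -0.58 (ZT12 session, against sedentary ZT12 mice). Which session had the larger fall thus depended on the control chosen.

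Sesn2 read 2.03, 2.24 and 2.66 CPM in the +3h mice of the ZT0 session, against 3.55, 3.58 and 3.44 CPM. The groups do not overlap, and the fall was 1.52-fold (log2 fold change -0.61, SE 0.184, adjusted p = 0.032). It passed without 1 of the 6 libraries and was lost without the other 5, where the adjusted p reached 0.11. Against the sedentary ZT0 mice instead the value was -0.37 and did not pass (adjusted p = 0.20). After the ZT12 session Sesn2 read 2.64, 2.70 and 3.27 CPM, which overlaps its control (log2 fold change -0.14, SE 0.181, adjusted p = 0.68). Against the sedentary ZT12 mice, in which Sesn2 was higher, the value was -0.56 (adjusted p = 0.037).

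Ddit4 had returned near its control 3 h after the ZT0 run, with 9.12, 6.42 and 10.3 CPM against 4.76, 12.4 and 4.54 CPM. These overlap (log2 fold change 0.26, 95% interval -1.44 to 1.96). After the ZT12 run the 3 mice read 5.99, 164 and 50.6 CPM, against 19.9, 14.8 and 53.3 CPM. The run libraries spread from below to above all the controls, and the log2 fold change of 1.33 (SE 0.764) did not pass (adjusted p = 0.27). It rested on single mice: without treadmill +3h ZT12 replicate 2, the highest, it was -0.05, and without replicate 1, the lowest, it was 1.87 and passed (adjusted p = 0.047). Neutrophil markers also moved in that comparison, with 2 of 3 tested raised and a summed level from 0.299 to 3.06 CPM against 0.0325 to 0.160 CPM, and Ly6g stood at 0 in all but 1 of the 3 run libraries. In the same comparison 3 of 8 fast fibre markers were raised (summed level 168600 to 192000 CPM against 137800 to 159600 CPM), 1 of 5 endothelial markers was raised and 1 lowered, and 1 of 4 macrophage markers was lowered. In the +3h comparison of the ZT0 session 1 of 5 endothelial markers was raised. After the ZT12 session the slow fibre sum ran from 139 to 409 CPM, against 96.1 to 1868 CPM. Of its 6 markers 0 were called, with a median log2 fold change of -1.58. The part of these cells and fibre types in the values of Ddit4, Ddit4l, Sesn1 and Sesn2 was not tested.

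Sesn3 and Deptor did not pass after either session. Sesn3 had log2 fold changes of -0.38 (SE 0.170, adjusted p = 0.15) and -0.15 (SE 0.172, adjusted p = 0.62). For Deptor they were -0.12 (95% interval -0.39 to 0.16) and -0.01 (95% interval -0.28 to 0.27). Between the sessions, edgeR called 0 of the 6 genes for a difference of the +3h responses, where 0.649% of all genes were called upward and 0.941% downward (1.59% in all). The unadjusted p was under 0.05 for 1 of them (Ddit4l) and for 1965 of all 15097 genes. DESeq2 called 0 of them and 448 of all genes.

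The run groups were also compared with each other, from the end of the run to 3 h later. In the ZT0 session 1 of the 6 genes rose (Sesn1) and 3 fell (Ddit4, Ddit4l and Sesn2), where 6.33% of all genes rose and 7.8% fell (14.1% in all). In the ZT12 session 0 rose and 2 fell (Ddit4l and Sesn2), where 7.28% of all genes rose and 8.47% fell (15.8% in all). Ddit4 fell 12-fold in the ZT0 session (log2 fold change -3.58, SE 0.843, adjusted p = 0.009), without overlap. In the ZT12 session its value was -1.72 (SE 0.767, adjusted p = 0.15), and -3.10 without treadmill +3h ZT12 replicate 2 (adjusted p = 0.021). Sesn2 fell 2.10-fold in the ZT0 session (log2 fold change -1.07, adjusted p = 0.0005) and 1.5-fold in the ZT12 session (-0.59, adjusted p = 0.031). The second of these calls was lost without 4 of the 6 libraries, with adjusted p up to 0.12. Ddit4l fell 1.92-fold and 1.70-fold in the ZT0 and ZT12 sessions (adjusted p = 0.00099 and 0.0042), and both calls held without any 1 library. In a fit of only the groups compared, the ZT12 call was lost (-0.77, adjusted p = 0.067). Sesn1 rose 1.90-fold in the ZT0 session (log2 fold change 0.93, SE 0.173, adjusted p = 0.0013). In the ZT12 session it had a log2 fold change of 0.33 (SE 0.171, adjusted p = 0.22), which passed without the high +0h library (0.58, adjusted p = 0.017) or without treadmill +3h ZT12 replicate 1 (0.50, adjusted p = 0.046). From +0h to +3h of the ZT12 session, 4 of 5 endothelial, 1 of 3 neutrophil and 1 of 4 fibroblast markers were raised. In the ZT0 session 1 of 5 endothelial markers was raised and 1 lowered, and 1 of 4 fibroblast markers was raised. Of 6 slow fibre markers 0 were called in either session, with median log2 fold changes of 1.66 (ZT0) and 1.59 (ZT12). The part of these cells and fibre types in the values of both sessions was not tested.

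Ordered by mean level in quadriceps, Ddit4 went from treadmill +0h ZT12 (243 ± 61.7 CPM) through treadmill +0h ZT0 (103 ± 28.6), treadmill +3h ZT12 (73.6 ± 81.6), sedentary ZT12 (55.2 ± 27.6), sedentary ZT16 (29.4 ± 20.9), treadmill +3h ZT0 (8.61 ± 1.99) and sedentary ZT4 (7.22 ± 4.45) to sedentary ZT0 (4.07 ± 0.0291), each SD with n = 3. Neighbours in that order overlapped except the first pair, the step from sedentary ZT16 to treadmill +3h ZT0, and the last pair. Sesn1 went from treadmill +3h ZT0 (44.1 ± 2.73 CPM, n = 3) to sedentary ZT16 (20.3 ± 2.34 CPM, n = 3), and each group overlapped the next. Ddit4l went from sedentary ZT0 (388 ± 42.0 CPM, n = 3) to treadmill +3h ZT12 (137 ± 16.9 CPM, n = 3), and only treadmill +0h ZT0 and sedentary ZT16 were apart as neighbours. For Sesn2 the order ran from treadmill +0h ZT0 (4.86 ± 1.33 CPM, n = 3) to treadmill +3h ZT0 (2.31 ± 0.324 CPM, n = 3), so its extremes are the 2 run groups of 1 session. Sesn3 ran from sedentary ZT4 (4.18 ± 0.446 CPM, n = 3) to treadmill +3h ZT12 (2.70 ± 0.244 CPM, n = 3). Deptor ran from sedentary ZT12 (150.5 ± 11.4 CPM, n = 3) to treadmill +3h ZT0 (111 ± 7.37 CPM, n = 3). In these last orders every group of Sesn3 and of Deptor overlapped the next.

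In gastrocnemius the question was whether running by day instead of by night moved the same genes. The wheel schedule and how recently a mouse could run before sampling cannot be told apart at either time. At ZT4, which falls in the hours of wheel access for the day group, Sesn1 was higher and Sesn2 lower in mice that ran by day. In that comparison 1 of the 6 genes was raised and 1 lowered, where 6.36% of all genes were raised and 6.78% lowered (13.1% in all). At ZT16 edgeR called 0 of the 6, where 0.275% of all genes were raised and 0.289% lowered (0.565% in all). The unadjusted p was under 0.05 for 1 of them, Deptor (log2 fold change -0.25, SE 0.0717, adjusted p = 0.12), and for 1942 of all 14523 genes. DESeq2 called 369 of all genes and 1 of the 6, again Deptor (adjusted p = 0.046). In edgeR it passed without night wheel ZT16 replicate 4 (-0.31, adjusted p = 0.032).

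Sesn1 read 37.3, 30.4, 36.6 and 30.2 CPM in the day group at ZT4, against 19.5, 18.5, 18.7 and 20.1 CPM in the night group. The groups are far apart (log2 fold change 0.81, 95% interval 0.56 to 1.05, SE 0.116, adjusted p = 0.00049). At ZT16 it read 18.0, 20.9, 15.97 and 12.9 CPM in the day group and 17.6, 19.7, 21.6 and 18.8 CPM in the night group, which overlap (log2 fold change -0.20, SE 0.118, adjusted p = 0.51). Within the day group Sesn1 fell 1.98-fold from ZT4 to ZT16 (log2 fold change -0.99, SE 0.117, adjusted p = 5.1e-05). Within the night group it had a log2 fold change of 0.02 (95% interval -0.24 to 0.27). The difference between those time effects was -1.0 (SE 0.165, adjusted p = 0.0014). It held without any 1 of the 16 libraries, as did the difference at ZT4 without any of its 8.

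Sesn2 read 1.58, 1.80, 1.78 and 2.17 CPM in the day group at ZT4, against 2.80, 2.23, 2.30 and 2.87 CPM in the night group. All day libraries lie below all night libraries, by a narrow gap, a 1.40-fold difference (log2 fold change -0.48, SE 0.129, adjusted p = 0.02). The call was lost without 4 of the 8 libraries (night wheel ZT4 replicates 1 and 4, day wheel ZT4 replicates 1 and 3), with adjusted p up to 0.068. At ZT16 the day group read 3.15, 3.11, 2.90 and 2.49 CPM, so Sesn2 rose 1.59-fold between the times in that group (log2 fold change 0.67, SE 0.128, adjusted p = 0.0015), a call that held without any 1 library. In the night group Sesn2 at ZT16 read 2.56, 2.91, 2.28 and 2.84 CPM, within the range of ZT4 (log2 fold change 0.05, SE 0.126, adjusted p = 0.82). The difference between the time effects was 0.61 (SE 0.180, adjusted p = 0.036), and was lost without 10 of the 16 libraries (adjusted p up to 0.078). Sesn1 and Sesn2 thus had opposite signs in the day group between the times, 1 falling and the other rising.

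From ZT4 to ZT16, 1 of the 6 genes was raised and 2 were lowered in the day group, where 7.7% of all genes were raised and 7.17% lowered (14.9% in all). The second of the lowered genes was Sesn3, with 3.63, 3.30, 3.58 and 2.98 CPM at ZT4 and 2.08, 2.38, 2.78 and 2.84 CPM at ZT16. The groups do not overlap but nearly touch (log2 fold change -0.42, SE 0.138, adjusted p = 0.049), and the call was lost without 6 of the 8 libraries, with adjusted p up to 0.14. In the night group 2 of the 6 were raised (Ddit4 and Deptor) and 0 lowered, where 9.41% of all genes were raised and 9.38% lowered (18.8% in all). For the difference of the time effects, 1 was called upward and 1 downward, where 4.68% and 5.07% of all genes were (9.74% in all).

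Ddit4 was scarce in gastrocnemius, from 2.85 to 17.9 CPM over the 16 libraries. In the night group it read 4.42, 4.13, 4.53 and 2.85 CPM at ZT4 and 8.21, 5.66, 10.9 and 17.9 CPM at ZT16. All ZT16 libraries are above all ZT4 libraries, a 2.72-fold rise (log2 fold change 1.44, SE 0.356, adjusted p = 0.013) that held without any 1 of the 8 libraries. In the day group it read 7.72, 4.04, 3.85 and 4.05 CPM at ZT4 and 5.36, 5.08, 8.69 and 7.64 CPM at ZT16, which overlap (log2 fold change 0.45, SE 0.352, adjusted p = 0.46). The difference between the time effects was -0.99 (SE 0.5, adjusted p = 0.26). Deptor read 109, 98.5, 98.6 and 109 CPM in the night group at ZT4 and 134, 145, 112 and 108 CPM at ZT16. The ranges overlap, and the log2 fold change of 0.26 (SE 0.0717) passed (adjusted p = 0.015). The call was lost without night wheel ZT4 replicate 2 (adjusted p = 0.053), without night wheel ZT16 replicate 1 (adjusted p = 0.05 as rounded, just over the threshold) and in a fit of only the groups compared (adjusted p = 0.096). In the day group Deptor had 0.09 (SE 0.0717, adjusted p = 0.47). Ddit4l lay between 219 and 402 CPM in all 16 libraries and passed in no wheel comparison. Its log2 fold change between day and night groups was 0.27 at ZT4 (95% interval 0.03 to 0.50, adjusted p = 0.13) and 0.19 at ZT16.

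Markers of other cells moved with these groups too. At ZT4, 3 of 5 endothelial and 1 of 4 macrophage markers were lowered in the day group, with an endothelial sum from 175 to 199 CPM against 217 to 235 CPM. From ZT4 to ZT16 in the night group, 3 of 5 endothelial, 2 of 4 macrophage and 2 of 4 fibroblast markers were lowered. In the day group between the times, 1 of 7 adipocyte markers was raised and 1 lowered, with a summed level from 162.8 to 198 CPM at ZT4 and from 157.5 to 189 CPM at ZT16, and 0 of 5 endothelial markers were called. The part of these cells in the sestrin, Ddit4 and Deptor differences was not tested.

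**Figure D3:**
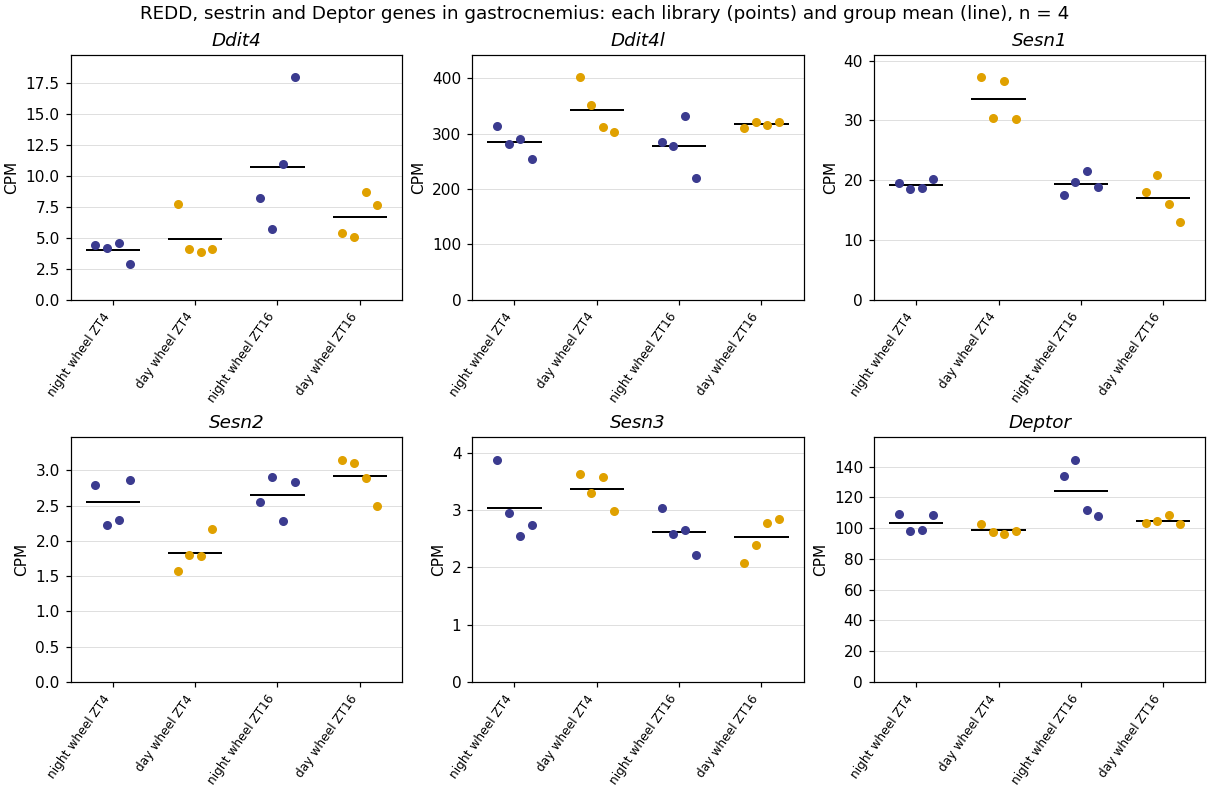
Level of each gene in CPM (vertical axis, from 0) in the 16 gastrocnemius libraries by wheel schedule and time; points are libraries and lines group means of 4. Sesn1 stands between 30.2 and 37.3 CPM in the day group at ZT4 and at or below 21.6 CPM in the other groups, and Sesn2 is lowest in that same day group.

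The rest of the pathway was taken from 5 lists with 47 genes, all in the table and tested: the mTORC1 complex, TSC and Rheb, the Rag GTPases with Ragulator and folliculin, the GATOR, KICSTOR and CASTOR proteins, and mTORC1 substrates. Between sedentary ZT12 and ZT0, 8 of the 47 were raised and 0 lowered, where 7.58% of all genes were raised and 8.56% lowered. Their median log2 fold change there was 0.05. For sedentary ZT16 against ZT4, 1 was raised and 3 lowered, where 3.49% and 3.67% of all genes were. At the end of the run edgeR called 0 of the 47 in either session (6.82% and 4.6% of all genes were called). The unadjusted p was under 0.05 for 10 of the 47 (ZT0) and 4 (ZT12), against 3440 and 2545 of all 15097 genes. DESeq2 called 1 and 0 of the 47, against 1447 and 917 of all genes. At +3h, 6 of 47 were raised and 1 lowered after the ZT0 session, where 6.96% of all genes were raised and 6.63% lowered. After the ZT12 session 9 of 47 were raised and 1 lowered, where 8.7% of all genes were raised and 8.53% lowered. The median log2 fold change of the 47 was 0.05 and 0.06 in those comparisons, where that of all genes was near 0.

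Genes of the folliculin complex, the activator that lets Rag GTPases bring mTORC1 to the lysosome, were among them at both sessions. Flcn, folliculin itself, reached 123 ± 19.2 CPM after the ZT0 session, against 76.2 ± 3.89 CPM (log2 fold change 0.69, adjusted p = 0.00016, n = 3). After the ZT12 session it reached 130.3 ± 14.9 CPM, against 57.02 ± 1.77 CPM (log2 fold change 1.19, adjusted p = 1.8e-07, n = 3). Its partners Fnip1 and Fnip2 rose after both, with log2 fold changes of 0.81 and 0.59 (ZT0) and 0.64 and 0.85 (ZT12). Rheb, the GTPase that switches mTORC1 on, rose by 0.26 and 0.28 on the log2 scale. Eif4ebp1, a repressor of translation that mTORC1 inactivates, rose by 0.72 and 1.19, and Lpin1, a phosphatidate phosphatase and mTORC1 substrate, by 0.60 and 0.78. Mtor rose after the ZT12 session (0.24), as did Rhebl1, a relative of Rheb (0.98), and the autophagy kinase Ulk1 (0.45). The lowered genes were Pdcd4, a translation inhibitor, after the ZT0 session (-0.31) and the mTORC1 subunit Mlst8 after the ZT12 session (-0.24). The 14 GATOR, KICSTOR and CASTOR genes, which include the partners of the sestrins, had median log2 fold changes of -0.04 and -0.02 in these comparisons.

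In the wheel mice at ZT4, 5 of the 47 genes were raised and 0 lowered in the day group, where 6.36% of all genes were raised and 6.78% lowered. They were Fnip2 (log2 fold change 0.88), Fnip1 (0.96), Flcn (0.67), Rragc (0.24), which encodes a Rag GTPase, and Tsc1 (0.16), a subunit of the TSC complex. For the difference of time effects, 5 of 47 were called downward and 1 upward, where 5.07% and 4.68% of all genes were. They were Fnip1 (-1.32), Fnip2 (-1.05), Flcn (-1.0), Castor2 (-0.36) and Rragc (-0.35), and Itfg2 (0.34), a subunit of KICSTOR. Sesn1, at -1.0, had a value of the same sign and size as Flcn. At ZT16, Flcn, Fnip1 and Fnip2 were not called between the schedules (adjusted p = 0.32, 0.19 and 0.53). From ZT4 to ZT16, 6 of 47 were raised and 6 lowered in the day group, where 7.7% and 7.17% of all genes were. In the night group 5 were raised and 4 lowered, where 9.41% and 9.38% of all genes were.

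**Figure D4:**
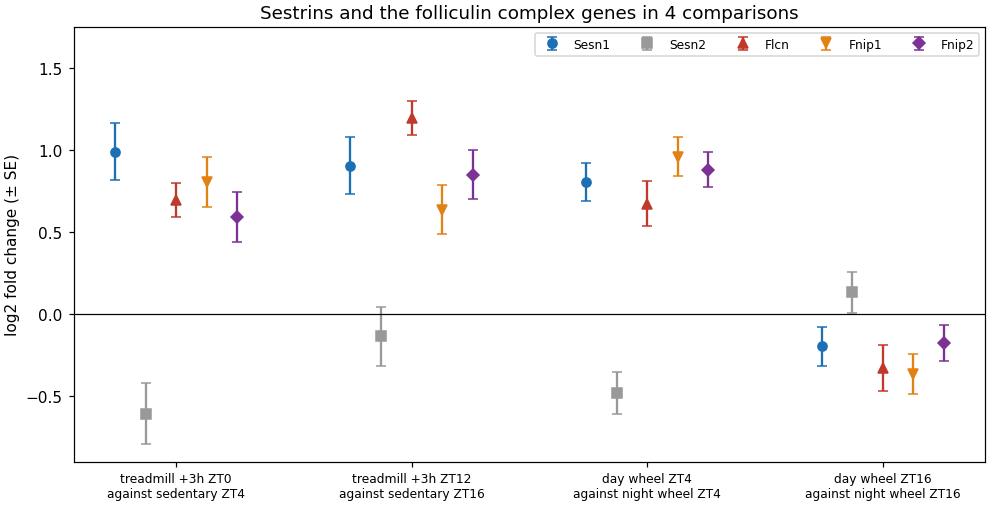
Log2 fold change (vertical axis, ± SE) of Sesn1, Sesn2, Flcn, Fnip1 and Fnip2 in the +3h comparisons and the day against night wheel comparisons. Sesn1 and the 3 folliculin complex genes lie above 0 in the first 3 comparisons, from 0.59 to 1.19, and below 0 at ZT16. Sesn2 lies below 0 in the first 3, but did not pass at +3h of the ZT12 session (adjusted p = 0.68). No gene shown passed at ZT16.

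Transcription factors known to act on these genes were looked at as a list of 7. Atf4, the integrated stress response factor that targets Sesn2, was raised at the end of both runs (log2 fold change 0.21, adjusted p = 0.034, and 0.32, adjusted p = 0.0019). At +3h, Foxo1 (1.34 and 1.33), Foxo3 (0.54 and 0.85) and Nr3c1, the glucocorticoid receptor gene (0.28 and 0.30), were raised after both sessions. Atf4 was raised at +3h of the ZT0 session (0.26) and Hif1a, a hypoxia factor, at +3h of the ZT12 session (0.30). In the day wheel group at ZT4, Foxo3 (0.55), Nr3c1 (0.26) and Hif1a (0.21) were raised and Trp53, the p53 gene, was lowered (-0.24). These are levels of mRNA, and the activity of the factors was not measured here.

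The genes most alike in level were taken as the 3 with the highest Pearson r of log2 CPM over the 24 quadriceps libraries, which share their groups. This is a description and carries no test. For Ddit4 they were Nfkbia (r = 0.931), an inhibitor of NF-kappaB, Lrrc8a (0.902), a subunit of volume-regulated anion channels, and Per1 (0.895), a core clock gene. For Sesn1 they included Med13l (0.881) and Trim63 (0.879), which encodes the muscle ubiquitin ligase MuRF1. For Ddit4l they were Lrrc38 (0.934), Plxna1 (0.926) and Tent4b (0.910). For Sesn2 they were Btnl9 (0.858), Heatr5b (0.827) and Hdac1 (0.802). The highest values for Sesn3 (Alkbh8, 0.797) and Deptor (Trmt12, 0.813) were lower. Among the 6 genes themselves, Ddit4l and Sesn1 had the most negative r (-0.677) and Ddit4 and Sesn2 the most positive (0.557).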

How the data were processed

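Polyadenylated RNA was sequenced from quadriceps and gastrocnemius (TruSeq Stranded mRNA, per the labels' protocols). The authors deposited estimated counts per gene, which are not whole numbers, with a column for each of 2 lanes (80 columns). The submitters' processing notes name kallisto 0.46.2, bcl2fastq 2.20.0.422 and DESeq2 1.26.0, and the builds mm10 and GRCm38.p6. For the gene sums the annotation was not given in the sources used here. kallisto shares reads that fit several transcripts by a model.

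The lanes were summed and rounded. Of 23621 rows, 23614 matched a symbol in a RefSeq gene table. All libraries of a muscle entered 1 edgeR 4.0.16 fit (R 4.3.3, limma 3.58.1; TMM normalization, filterByExpr with a minimum count of 10, robust quasi-likelihood test), with Benjamini-Hochberg adjustment over all tested genes and a threshold of 0.05. Standard errors are the log2 fold change divided by the square root of F. CPM came from TMM-scaled totals. Log2 CPM for likeness used an offset of 0.5 and genes with a mean of at least 1. The fit was tested on simulated data. Transcript lengths are those of GENCODE vM21 transcripts matched to RefSeq.

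The 16 comparisons are those given in the text. The +0h groups were set against sedentary mice at the session's named start, and the +3h groups against ZT4 or ZT16, so that labelled times differ a little. Alternatives were DESeq2 1.42.0, RLE size factors, no filter, a fit of only the groups compared, the other sedentary control, a replicate block and leaving out each library. All 6 genes were to be named, with the 3 most alike genes for each and, from each pathway list, up to 3 called genes with the smallest p in a comparison; Flcn in the wheel comparisons and 1 of the transcription factors in some comparisons fall outside that rule and were named after their values were seen. The genes and lists were chosen with earlier results of these data known. No pair of libraries of the same group agreed within sampling noise (lowest chi-square per degree of freedom 6.63), and pairs across groups were not checked. Where the labels do not say that libraries come from separate mice, p-values measure only the spread between libraries. No promoter entry was used for Deptor. Among the genes most alike to Sesn1, 1 is not reported here.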

Additional observations from a re-analysis of the deposited data

Results flagged for a closer look

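Ddit4 in day wheel ZT4 replicate 1 stood at 7.72 CPM, apart from the other 3 libraries of its group, which lay between 3.85 and 4.05 CPM. It was the only library so placed in 24 groups of 4 libraries (6 genes in 4 groups), and chance places about 1 in 20 so. Without it, the log2 fold change of Ddit4 between day and night groups at ZT4 was 0.01, against 0.32 with it, and neither passed.

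The effect of time on Sesn1 differed between wheel schedules by -1.0 on the log2 scale (day minus night, adjusted p = 0.0014). The effect on Sesn2 differed by 0.61 (adjusted p = 0.036), the opposite sign.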

How the results depend on the processing

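Over 504 values under settings other than leaving out a library, 485 kept their direction and side of the threshold, 8 lost their call, 6 gained one and 5 turned sign. The counts of called genes among the 6 that moved by more than 1.5 times were these. With the other sedentary control, the end of the ZT0 run called 1 (2 in the fit as reported) and the end of the ZT12 run 2 (0 as reported). With only the compared groups in the fit, the end of the ZT0 run, +3h against +0h of the ZT12 session, and night wheel ZT16 against ZT4 each called 1 (2 as reported). With DESeq2, day against night wheel at ZT16 called 1 (0 as reported). The values that turned sign did so with the other sedentary control, and none passed before or after: at the end of the ZT0 run Ddit4l at 0.36 (-0.09 as reported) and Sesn1 at 0.059 (-0.09), and at the end of the ZT12 run Ddit4l at -0.39 (0.18), Sesn3 at 0.22 (-0.04) and Deptor at 0.14 (-0.12). The cause was not tested. RLE size factors and no filter moved no count by more than 1.5 times.

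The replicate numbers did not pair the libraries: in 0 of 12 comparisons did every same-numbered pair correlate over 0.1 (r from -0.457 to 0.406), and 13 of 40 pairs were the best match of their library. In 1 comparison, day against night wheel at ZT4, every pair was (r from 0.0515 to 0.217). There Sesn1 and Sesn2 were still called with the replicate number as a block. With the replicate number as a block, sedentary ZT16 against ZT4 called 1 gene (0 as reported), Sesn3 at -0.51 (adjusted p = 0.038), and Sesn3 in day wheel ZT16 against ZT4 no longer passed (-0.40, adjusted p = 0.063).

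Leaving out each library in turn, the number of called genes ran from 1 to 2 at the end of the ZT0 run, 0 to 1 for the difference of +0h responses, 1 to 3 at +3h of the ZT0 session, 0 to 1 for sedentary ZT16 against ZT4, and 1 to 2 for +3h against +0h of the ZT12 session. It ran from 1 to 2 for day against night wheel at ZT4, for night wheel ZT16 against ZT4 and for the difference of time effects, and from 0 to 1 for day against night wheel at ZT16. For sedentary ZT12 against ZT0 it ran from 2 to 4. It ran from 2 to 3 over the 4 sedentary groups, at +3h of the ZT12 session and for day wheel ZT16 against ZT4. In the remaining comparisons it did not move. Of 792 values, 711 kept direction and side, 44 lost a call, 10 gained one and 27 turned sign, none of the last called in either fit. Their log2 ranges at the end of the ZT12 run were -0.050 to 0.35 (Ddit4l), -0.12 to 0.21 (Sesn2) and -0.11 to 0.047 (Sesn3). At +3h of the ZT0 session Deptor ran from -0.20 to 0.021. At +3h of the ZT12 session Ddit4 ran from -0.049 to 2.08, Sesn3 from -0.32 to 0.072 and Deptor from -0.13 to 0.14. From +0h to +3h, Sesn3 ran from -0.0043 to 0.30 (ZT0) and Deptor from -0.27 to 0.00086 (ZT12). For the difference of +3h responses, Ddit4 ran from -0.31 to 1.82, Sesn1 from -0.26 to 0.092 and Deptor from -0.031 to 0.26, and for sedentary ZT16 against ZT4 Deptor ran from -0.015 to 0.21. For the night wheel times they were -0.13 to 0.067 (Ddit4l), -0.038 to 0.059 (Sesn1) and -0.0052 to 0.12 (Sesn2), for the difference of time effects -0.18 to 0.017 (Ddit4l), and for the wheel schedules at ZT16 -0.12 to 0.033 (Sesn3). Groups of 3 or 4 and the low counts of Sesn2 and Sesn3 limit what could be detected.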
